A study of Homo sapiens with 57 samples.

Results

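The glycolysis transcripts described here are 11 messenger RNAs of 9 genes, out of 228715 transcripts listed in each expression table. They were taken by their Ensembl identifiers from a fixed list, which also gave the gene symbols: GAPDH, ENO1, PKM (3 transcripts), LDHA, PGK1, TPI1, HK2, SLC2A1 and PFKP. The tables themselves carry no gene names, so these symbols could not be checked against them, and other transcripts of the same genes are not analysed here. Of the 57 samples of the series, 9 poly(A)-selected mRNA libraries were used, and the other 48, of other assays, were not used. The cells were HCT116, a human colorectal carcinoma line, with the genotype Spt5-HA-dhfr, grown without trimethoprim (TMP) in medium with hygromycin, G418, blasticidin and doxycycline. Tags built on bacterial dihydrofolate reductase are used as degrons that TMP stabilizes, and the loss of the tagged Spt5 was not tested here. All carried the doxycycline-inducible construct pCW57AviSpt5(1-820), which encodes an Avi-tagged fragment of Spt5 from residue 1 to residue 820. Its expression was induced with 2 ug/ml doxycycline for 24 hours. The 3 groups, of 3 libraries each, differed in the CTR1 region of that fragment, which was the unaltered form (WT) or the forms that the labels name CTR1_TA7 and CTR1_TE7. The labels do not say whether each line was a clone, or whether the replicates were separate cultures, so a form cannot be told apart from the line that carries it, and each p-value measures the spread among these libraries alone, which may be technical. The identity of the cells was not checked against marker genes, which would need gene names.

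Glycolysis turns glucose into pyruvate in the cytosol. SLC2A1 (also called GLUT1) carries glucose across the plasma membrane, HK2 phosphorylates it, and PFKP is the platelet-type subunit of phosphofructokinase, which catalyses the committing step. TPI1 interconverts the triose phosphates, GAPDH, PGK1, ENO1 and PKM act in the later, energy-yielding part of the pathway, and LDHA reduces pyruvate to lactate. Many carcinoma lines make much lactate even with oxygen present, and several of these genes are known targets of the transcription factors HIF-1 and MYC. Spt5 helps RNA polymerase II to elongate, and its C-terminal repeat region is a known target of phosphorylation.

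Sequence from RefSeq (GRCh38.p14) was found for all 9 genes, as 15 windows of 250 bases directly before an annotated start. Windows of 3 genes are printed because they belong to the single transcript that passed the test (SLC2A1), to the one with the smallest CPM range over the libraries (PGK1) and to the one with the widest (LDHA). Capitals mark every match to ACGTG, a form of the core of the hypoxia response element bound by HIF-1, on either strand (CACGT on the strand shown). Other forms of the core, such as GCGTG, were not searched and are not marked. The windows are SLC2A1 at chr1:42958869-42959118 (minus strand), PGK1 at chrX:78103998-78104247 (plus strand) and LDHA at chr11:18394313-18394562 (plus strand), each written 5′ to 3′ in the direction of transcription.
SLC2A1: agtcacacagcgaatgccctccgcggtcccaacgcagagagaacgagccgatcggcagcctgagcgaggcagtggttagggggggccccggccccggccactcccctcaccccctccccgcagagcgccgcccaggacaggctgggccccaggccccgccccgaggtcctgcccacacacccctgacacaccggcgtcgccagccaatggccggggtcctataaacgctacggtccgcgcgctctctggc
PGK1: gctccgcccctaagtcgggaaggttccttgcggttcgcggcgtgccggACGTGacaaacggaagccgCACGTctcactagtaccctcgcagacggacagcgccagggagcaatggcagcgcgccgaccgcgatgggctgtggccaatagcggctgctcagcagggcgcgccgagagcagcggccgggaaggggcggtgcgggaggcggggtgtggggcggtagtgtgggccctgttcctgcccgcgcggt
LDHA: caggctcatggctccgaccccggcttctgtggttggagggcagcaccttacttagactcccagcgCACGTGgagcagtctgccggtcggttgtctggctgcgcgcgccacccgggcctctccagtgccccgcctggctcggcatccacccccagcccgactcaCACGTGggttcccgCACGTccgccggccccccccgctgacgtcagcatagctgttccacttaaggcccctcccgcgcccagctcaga
The SLC2A1 window held no ACGTG, the PGK1 window held it at 2 places, 202 and 183 bases before the start, and this LDHA window held it at 3 places. At 2 of the LDHA places the letters were the longer CACGTG, the E-box bound by MYC, in which the ACGTG of one strand overlaps that of the other. A further LDHA window, at chr11:18396101-18396350, held none. Among the 15 windows 7, from 6 genes, held ACGTG (46.7%), and 18.5% of all 35116 RefSeq windows did. CACGTG was in 3 of the 15, one each of GAPDH, LDHA and HK2, and in 6.34% of all windows. A match is a description of the letters only. Which window gave rise to which listed transcript was not determined.

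The libraries held 64364751 to 90805283 estimated reads. All 11 transcripts passed the filter on low counts that left 78478 transcripts for testing. Levels are given as TPM (a share of transcripts, scaled per length) when genes are compared with each other, and as CPM (read counts per unit of library size after TMM scaling) when groups are compared. WT replicate 1 had the lowest TMM factor, 0.92 against 0.971 to 1.037 elsewhere. It also had the fewest transcripts with reads, 87229 against 95401 to 99993, and the lowest median rank correlation across transcripts with its own group, 0.923 against 0.936 to 0.964. Results that rest on it are given with and without it. Reads shared between transcripts are divided by estimation, which matters for the 3 PKM transcripts and for GAPDH, a gene with many processed pseudogenes. SLC2A1 has an annotated divergent neighbour on the opposite strand, SLC2A1-DT, and the strandedness of the libraries is not given in the sources used here.

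The transcripts spanned more than 3 orders of magnitude in TPM. GAPDH was the most abundant, at 3837 ± 152 TPM in WT (SD, n = 3), followed by PKM ENST00000335181 at 2099 ± 144, ENO1 at 1079 ± 51.8 and TPI1 at 976 ± 41.5. ENO1 and TPI1 were neighbours whose WT ranges came close, at 1029 to 1132 and 929 to 1007 TPM. PFKP stood at 154 ± 2.96 TPM and SLC2A1 at 39.6 ± 2.73. The listed PGK1 transcript, of 4812 bases, was at 29.2 ± 3.55 TPM. Below it the order was not resolved in WT. LDHA at 16.8 ± 6.16 TPM, HK2 at 15.1 ± 3.56 and PKM ENST00000565184 at 12.6 ± 1.57 had overlapping ranges. PKM ENST00000319622 was the lowest, at 2.39 ± 1.14 TPM. The low values of LDHA and PGK1 are those of the listed transcripts and not of the genes, since reads given to their other transcripts were not summed.

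**Figure D1:**
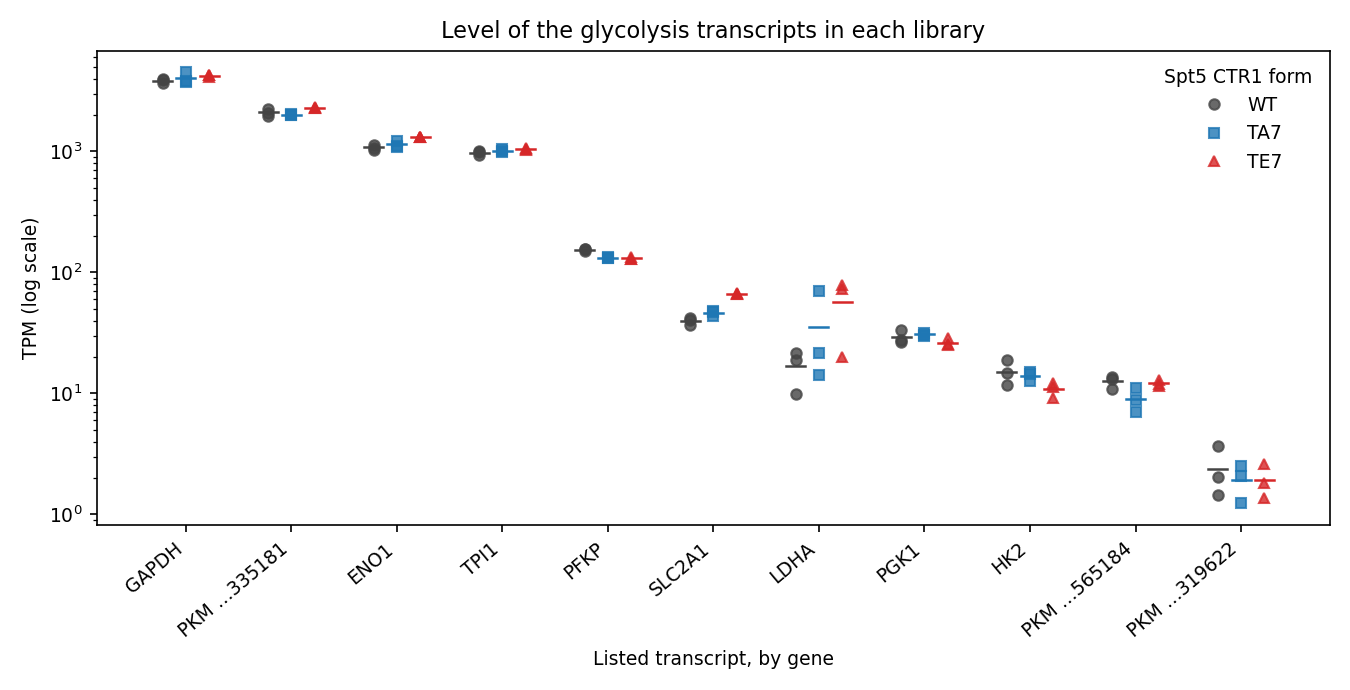
TPM on a log axis for the 11 listed transcripts, ordered by their mean, with 1 point per library (3 per group) and a line at each group mean. GAPDH lay at 3663 to 4507 TPM and PKM ENST00000319622 at 1.24 to 3.66, and the LDHA points were spread within TA7 and TE7.

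Expression of the glucose transporter SLC2A1 was higher in TE7 than in WT, and it was the 1 transcript of the 11 to pass the test, where 9.4% of all tested transcripts did. SLC2A1 stood at 114, 115 and 105 CPM in WT replicates 1 to 3. In TA7 it stood at 129, 123 and 115 CPM. In TE7 it stood at 194, 197 and 189 CPM. Every TE7 library lay above every library of the other groups, and the spread within TE7 was 3.97 CPM (SD, n = 3). The rise from WT to TE7 was 1.74-fold (95% interval 1.58 to 1.91), a log2 change of 0.80 with a standard error of 0.06 (edgeR quasi-likelihood test, adjusted p = 0.000561). Among the 1587 tested transcripts of at least 100 CPM, 40 had a larger log2 change. Leaving out each of the 9 libraries in turn gave 0.76 to 0.83, with edgeR adjusted p from 0.00123 to 0.00512. On the TPM scale, which uses lengths estimated per library, limma gave 0.74 on log2(TPM + 1), with adjusted p = 0.00063.

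A ratio within each library does not depend on how libraries are scaled. Per 1000 reads of GAPDH, the glyceraldehyde phosphate dehydrogenase often used as a reference, SLC2A1 had 25.5, 31.2 and 28.2 reads in WT. It had 29.4, 34.6 and 31.4 in TA7 and 45.4, 43.4 and 43.0 in TE7. The TE7 ratios again lay above all others, while those of TA7 and WT overlapped. Per 1000 reads of PFKP, SLC2A1 had 318 ± 25.9 reads in WT, 436 ± 25.9 in TA7 and 636 ± 3.69 in TE7 (SD, n = 3). PFKP was itself lower in TA7 and TE7, which enters this ratio.

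**Figure D2:**
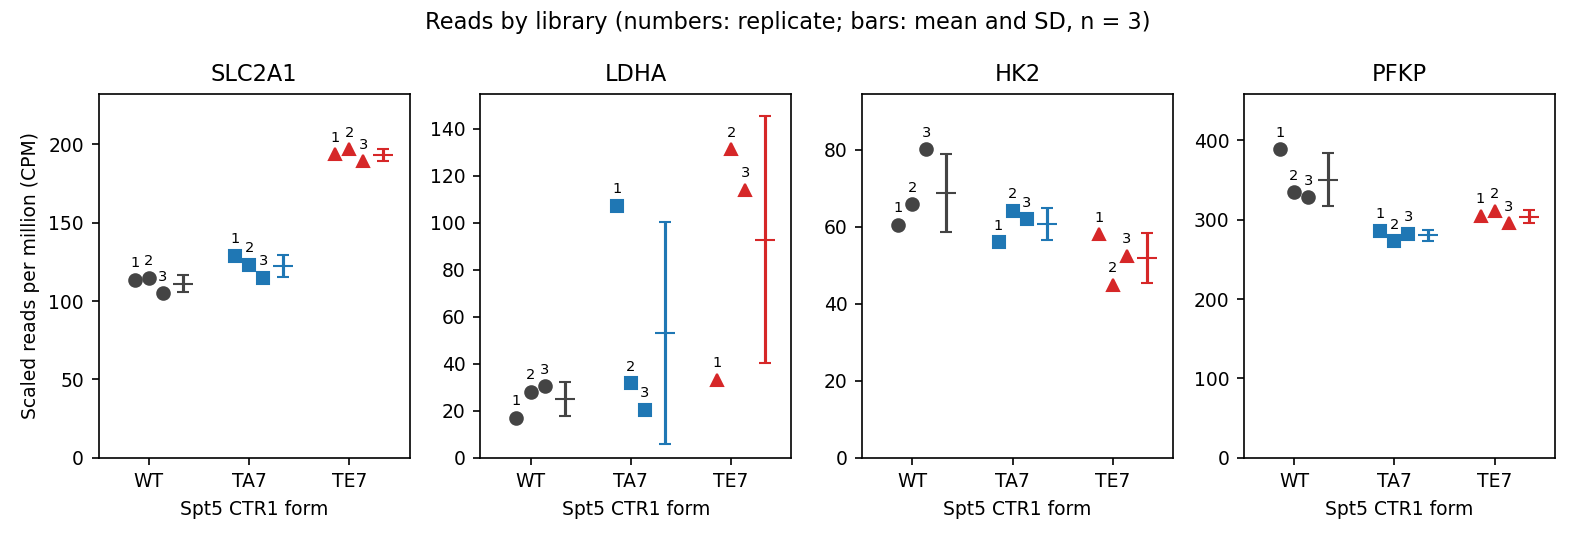
CPM in each library for SLC2A1, LDHA, HK2 and PFKP, with numbers naming the replicate and bars giving the mean and SD of 3 libraries. SLC2A1 in TE7 (189 to 197 CPM) lay clear of the other groups, LDHA was high in 3 single libraries, and HK2 was lowest and PFKP intermediate in TE7.

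The kinases at the entry of the pathway had lower values in TE7 than in WT, without passing the test. HK2 stood at 60.5, 65.9 and 80.2 CPM in WT, at 56.0, 64.2 and 62.0 in TA7 and at 58.0, 45.0 and 52.5 in TE7. Each TE7 library was below each WT library, by a narrow margin, and TA7 overlapped with both. The log2 change from WT to TE7 was -0.41 with a standard error of 0.13 (edgeR adjusted p = 0.0941). Leaving out single libraries gave -0.49 to -0.28, the smallest without WT replicate 3, with edgeR adjusted p from 0.0576 to 0.276. DESeq2 gave a change of -0.41 with adjusted p = 0.0221, where it called 20.4% of all tested transcripts. On simulated counts DESeq2 made many more false calls than edgeR. Those counts were drawn with the spread that edgeR estimated for each tested transcript, so they cannot rank the tools on these data. Here and in what follows, calls by DESeq2 alone are given as an alternative and not as support. On the TPM scale the HK2 ranges of TE7 (9.16 to 12.1) and WT (11.8 to 18.9) overlapped.

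PFKP stood at 389, 335 and 328 CPM in WT. It stood at 286, 273 and 282 CPM in TA7 and at 305, 311 and 295 in TE7. WT was the highest group without overlap, and WT replicate 1 was the highest library. The log2 change was -0.21 from WT to TE7 (standard error 0.07, edgeR adjusted p = 0.108) and -0.32 from WT to TA7 (standard error 0.07, edgeR adjusted p = 0.239). Without WT replicate 1 the changes were -0.12 (adjusted p = 0.0943) and -0.23 (adjusted p = 0.11). For TE7 it passed in 5 of 19 alternatives, among them limma on log2(TPM + 1) with adjusted p = 0.0112, and over all of them adjusted p ranged from 0.00974 to 0.281. For TA7 it passed in 1 of 19, DESeq2 (adjusted p = 0.000905), and over all of them adjusted p ranged up to 0.744.

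The 4 most abundant transcripts, GAPDH, PKM ENST00000335181, ENO1 and TPI1, all acting after the sugar is split, had positive fitted changes from WT to TE7 that did not pass. ENO1, which makes phosphoenolpyruvate, stood at 1861, 1489 and 1465 CPM in WT. It stood at 1708, 1479 and 1528 in TA7 and at 1954, 2033 and 1940 in TE7. All TE7 libraries lay above all others, with WT replicate 1 the nearest. The log2 change from WT was 0.30 with a standard error of 0.10 (edgeR adjusted p = 0.107). ENO1 passed in 6 of 19 alternatives, with adjusted p from 0.00232 to 0.27.

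PKM ENST00000335181, the main listed transcript of the pyruvate kinase gene, stood at 4911, 3792 and 3792 CPM in WT. It stood at 3809, 3636 and 3634 in TA7 and at 4512, 4714 and 4565 in TE7. By CPM, WT replicate 1 was the highest library of all 9, and the other WT libraries lay nearer TA7. By TPM it stood at 2252, below the 3 TE7 libraries at 2289 to 2311. The log2 change from WT to TE7 was 0.14 with a standard error of 0.10 (edgeR adjusted p = 0.435). GAPDH stood at 4452, 3691 and 3729 CPM in WT, at 4394, 3561 and 3659 in TA7 and at 4270, 4537 and 4397 in TE7. Replicate 1 was thus the high one in WT and in TA7, and within TE7 the values were even. Its log2 change was 0.15 with a standard error of 0.10 (edgeR adjusted p = 0.41). TPI1, triosephosphate isomerase, had the same pattern, at 1215, 985 and 986 CPM in WT, 1073, 986 and 1012 in TA7 and 1119, 1184 and 1150 in TE7, with a log2 change of 0.12 (edgeR adjusted p = 0.468).

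The calls of PKM ENST00000335181 and TPI1 depended on WT replicate 1, and those of ENO1 on it and on the scaling and tool. Without WT replicate 1, 4 of the 11 transcripts were called, all higher in TE7, where 11.7% of all tested transcripts were called: SLC2A1 at a log2 change of 0.82, ENO1 at 0.42 (edgeR adjusted p = 0.00875), PKM ENST00000335181 at 0.28 (0.00405) and TPI1 at 0.23 (0.0219). GAPDH was not called there (0.25, adjusted p = 0.134). The 4 called are at a mean of 100 CPM or more, and the fit with all libraries called 31.1% of such transcripts. ENO1 was also called with all libraries kept by library size alone (edgeR adjusted p = 0.0277) and by limma on log2(TPM + 1) (adjusted p = 0.0128). Without WT replicate 1 and TA7 replicate 1 together, a setting chosen after seeing the data, GAPDH was called as well, at 0.25 (edgeR adjusted p = 0.00863), where 11.9% of all tested transcripts were. By TPM, the 3 TE7 libraries lay above the 3 WT libraries for GAPDH (4154 to 4292 against 3663 to 3942) even with WT replicate 1. The same held by TPM for ENO1, PKM ENST00000335181 and TPI1, the last at 1028 to 1069 against 929 to 1007. The effective length of GAPDH, the divisor in TPM, was 1166 to 1169 bases in TE7 and 1194 to 1208 in WT. The part of effective length and of the TMM factor of WT replicate 1 in these values was not tested.

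**Figure D3:**
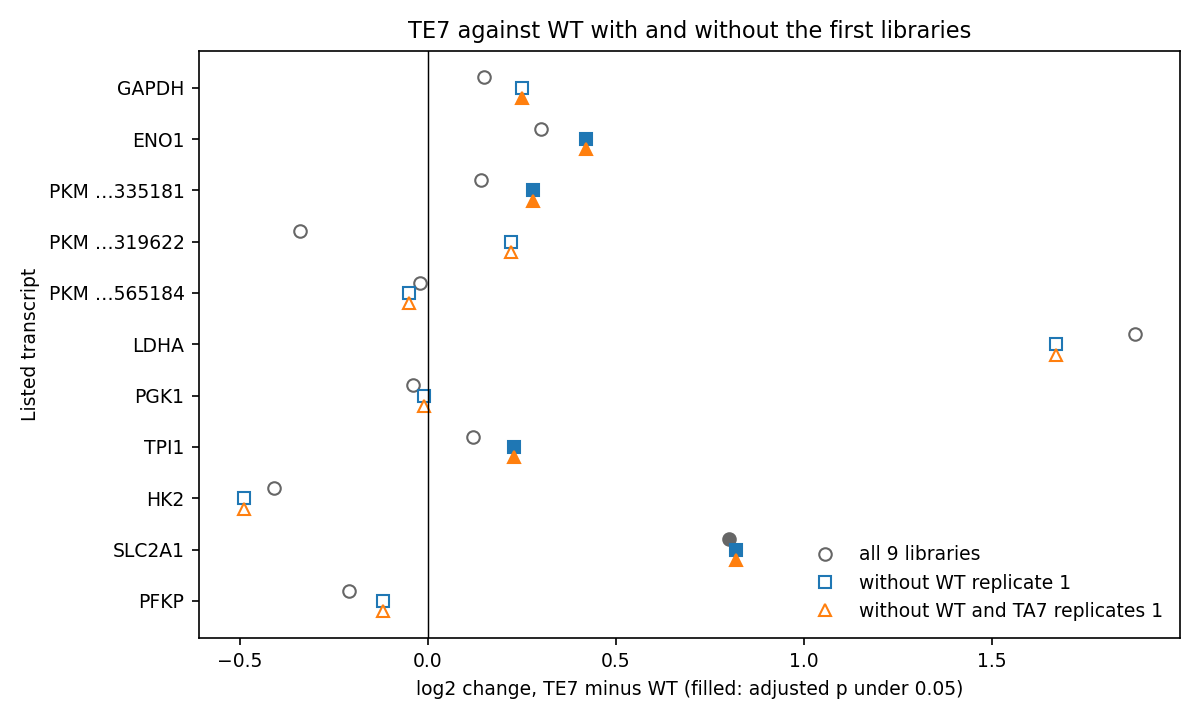
Fitted log2 change from WT to TE7 of each transcript with all 9 libraries, without WT replicate 1, and without WT and TA7 replicates 1, with filled symbols for adjusted p under 0.05. SLC2A1 kept its place at 0.80 to 0.82, and ENO1 moved from 0.30 to 0.42.

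The listed transcript of LDHA, lactate dehydrogenase A, differed most between libraries of a group. It stood at 17.0, 28.1 and 30.4 CPM in WT. In TA7 it stood at 107, 31.8 and 20.5 CPM, and in TE7 at 33.1, 131 and 114. The high libraries were TA7 replicate 1 and TE7 replicates 2 and 3, and TE7 replicate 1 lay just above the WT range by CPM. By TPM that library, at 20.0, lay inside the WT range of 9.89 to 21.7. Between the lowest and the highest library the CPM differed 7.74-fold, against 1.23-fold to 3.52-fold for the other listed transcripts except PGK1. The fitted change from WT to TE7 was 3.69-fold with a 95% interval of 1.17 to 11.6 (edgeR adjusted p = 0.149), and among the alternatives it passed only in DESeq2 (adjusted p = 0.0214). From WT to TA7 the log2 change was 1.08 (edgeR adjusted p = 0.836), and without TA7 replicate 1 it was 0.07. Whether reads moved between this and other LDHA transcripts was not tested.

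PGK1, phosphoglycerate kinase, had the smallest range of the 11 by CPM. It stood at 104, 93.2 and 106 CPM in WT, at 104, 102 and 104 in TA7 and at 95.6, 96.8 and 103 in TE7. The 3 groups overlapped, and the highest library was 1.14-fold above the lowest. The log2 change from WT to TE7 was -0.04, with a 95% interval of -0.18 to 0.10 (edgeR adjusted p = 0.768). By TPM its highest library was 1.33-fold above its lowest, more than for TPI1 (1.15-fold), PKM ENST00000335181, PFKP, GAPDH and ENO1, and TE7 at 25.0 to 28.6 lay below TA7 at 30.1 to 31.8.

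PKM gives rise by alternative splicing to the enzyme forms M1 and M2, the second of which prevails in most tumours. Which form each listed transcript encodes is not given in the sources used here. ENST00000335181 held 99.4, 99.2 and 99.3% of the summed TPM of the 3 listed PKM transcripts in WT, 99.3, 99.6 and 99.5% in TA7 and 99.4, 99.4 and 99.4% in TE7. The share was above 99% in every library. In 9 exact two-sided permutation tests of shares (3 transcripts, 3 comparisons), the smallest p was 0.1, for this transcript in TE7 against WT, a difference of 0.101 percentage points, with Benjamini-Hochberg adjusted p = 0.6. That is the smallest p that 3 against 3 libraries allow. PKM ENST00000565184 stood at 25.8, 27.8 and 27.5 CPM in WT, at 22.5, 13.8 and 17.8 in TA7 and at 24.9, 29.1 and 25.8 in TE7. TA7 was the low group without overlap by CPM, while by TPM TA7 replicate 1, at 11.01, lay above WT replicate 1, at 10.79. It had a log2 change from WT of -0.58 (edgeR adjusted p = 0.398) that passed only in DESeq2 (adjusted p = 0.0362), which called 2.82% of all tested transcripts. PKM ENST00000319622 was at 2.72 to 9.57 CPM and its groups overlapped in all comparisons. Its share of the summed PKM TPM was 0.112% in WT, 0.0955% in TA7 and 0.0839% in TE7, and that of PKM ENST00000565184 was 0.599%, 0.443% and 0.526% (means of 3 libraries).

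Over the list, TE7 against WT gave 1 call among 11 transcripts (9.09%), where 9.4% of all tested transcripts were called and 31.1% of those of at least 100 CPM. Of the 7 members that are themselves at 100 CPM or more, 1 was called. The groups did not overlap in CPM for 5 of 11, namely ENO1, LDHA, HK2, SLC2A1 and PFKP, where 32.9% of all tested transcripts and 54.4% of those of at least 100 CPM did not overlap. By TPM there were 6, with GAPDH, PKM ENST00000335181 and TPI1 in place of LDHA and HK2. The share of all tested transcripts without overlap was not computed by TPM, so this count has no background to be read against. The median log2 change of the 11 was 0.12, against -0.02 over all tested and 0.08 over those of at least 100 CPM. The share called was near the background, so these counts say nothing particular about the list.

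**Figure D4:**
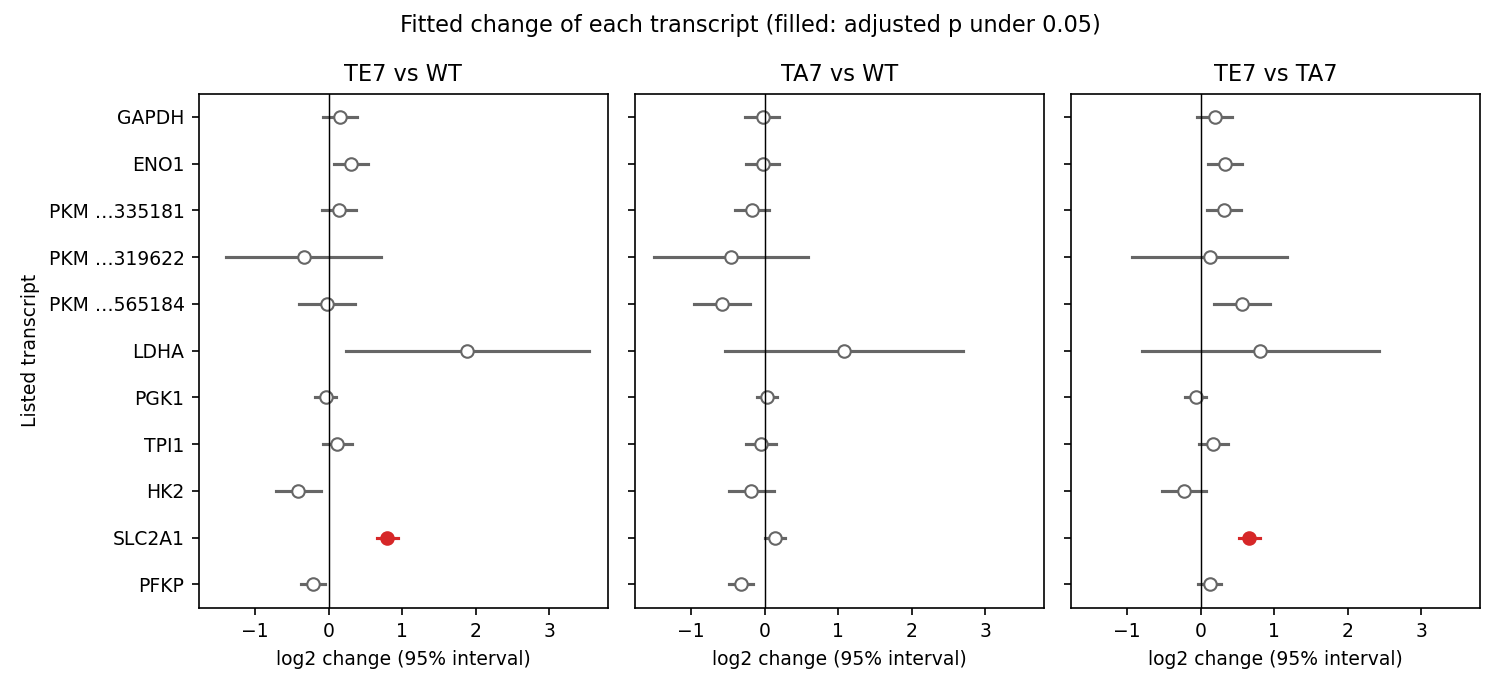
Fitted log2 change with its 95% interval for each listed transcript in the 3 comparisons, with filled red symbols for adjusted p under 0.05. SLC2A1 was the only one filled, in TE7 vs WT (0.80) and in TE7 vs TA7 (0.66), and the LDHA and PKM ENST00000319622 intervals were the widest.

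TA7 against WT gave 0 calls among the 11 in edgeR, where 0.0612% of all tested transcripts were called and 0.252% of those of at least 100 CPM. At an unadjusted p under 0.05 there were 3 in edgeR (PKM ENST00000565184, SLC2A1 and PFKP), where 7.73% of all tested transcripts were and 20.6% of those of at least 100 CPM, and DESeq2 called 2 of the 11, PKM ENST00000565184 and PFKP (2.82% of all tested), and limma on either TPM scale 0 (0.152% and 0.218%). The groups did not overlap for PKM ENST00000565184 and PFKP, 2 of 11, against 14.1% of all tested transcripts and 21.2% of those of at least 100 CPM. SLC2A1 in TA7 was 1.10-fold its WT level, with a 95% interval of 1.00 to 1.21 (edgeR adjusted p = 0.644). The ranges overlapped narrowly by CPM and did not by TPM, at 43.6 to 47.8 in TA7 and 36.6 to 41.9 in WT. GAPDH, ENO1 and TPI1 had fitted log2 changes of -0.03, -0.03 and -0.05, which turned to 0.03, 0.03 and 0.01 with library size alone and to 0.07, 0.08 and 0.06 on log2(TPM + 1). This comparison and TE7 against WT share the same 3 WT libraries.

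TE7 against TA7 asks whether the altered forms differed from each other. SLC2A1 was 1.58-fold higher in TE7 (95% interval 1.44 to 1.74), a log2 change of 0.66 with a standard error of 0.06 (edgeR adjusted p = 0.00444). It was the only call among the 11, where 3.07% of all tested transcripts were called and 14.4% of those of at least 100 CPM. Leaving out single libraries gave 0.62 to 0.70, with edgeR adjusted p from 0.00414 to 0.0294. ENO1 at 0.33 (edgeR adjusted p = 0.124), PKM ENST00000335181 at 0.32 (0.135) and PKM ENST00000565184 at 0.56 (0.115) did not pass. By CPM the groups did not overlap for 6 of 11, these 3 with TPI1, SLC2A1 and PFKP, where 31.5% of all tested transcripts did not overlap and 63.8% of those of at least 100 CPM. By TPM there were also 6, with PGK1 and HK2 in place of TPI1 and PFKP, and the share of all tested transcripts was not computed on that scale. Without WT replicate 1, which enters the same fit, ENO1 (0.32, edgeR adjusted p = 0.0249) and PKM ENST00000335181 (0.31, 0.00492) were also called, against 5.63% of all tested. Both were also called when only the TE7 and TA7 libraries were fitted (edgeR adjusted p = 0.0393 and 0.0132), against 6.53% of all tested. Without TA7 replicate 1, PKM ENST00000565184 was (0.75, 0.0483), against 1.5% of all tested. Without WT and TA7 replicates 1 together 6 were called, GAPDH (0.28) and TPI1 (0.20) in addition to these and SLC2A1, against 6.04% of all tested, and in DESeq2 4 were, against 16.2%. PFKP had a fitted log2 change of 0.12 on reads and of -0.01 on log2(TPM + 1).

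The 11 transcripts together made up 0.826% ± 0.0362 of all TPM in WT, 0.847% ± 0.056 in TA7 and 0.921% ± 0.0125 in TE7 (SD, n = 3). The lowest TE7 library, at 0.907%, lay below TA7 replicate 1, at 0.912%, and above all WT libraries. GAPDH and PKM ENST00000335181 make up most of this sum, so it says little about the rarer transcripts. By CPM the coefficient of variation of PKM ENST00000335181 was 15.5% in WT, 2.72% in TA7 and 2.28% in TE7. That of GAPDH was 10.8% in WT, 11.8% in TA7 and 3.03% in TE7, and that of SLC2A1 was 4.85%, 5.80% and 2.06%.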

How the data were processed

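Messenger RNA was selected with oligo-dT after Trizol extraction, and libraries were made from 1 ug of RNA with a Nugen kit from Tecan, per the labels' protocols. The submitters' processing notes name cutadapt 2.3, Salmon 1.3.0 and the hg19 build. Which transcript set and library type Salmon was given is unstated there. The authors deposited for each transcript an estimated count of reads, not normalized, and a TPM value scaled per effective length, per the file headers. The members and lists were chosen with earlier results of these data known, and all 11 members were named whatever their values.

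Estimated counts were rounded, filtered by the default rule of edgeR 4.0.16, which kept 99.67% or more of the reads of each library, and scaled with TMM. A quasi-likelihood model of group alone used all 9 libraries and 78478 transcripts, with Benjamini-Hochberg adjustment over all of them and a threshold of 0.05. Standard errors come from the F statistic and 95% intervals from its degrees of freedom. Estimates cover reads without molecular identifiers. Alternatives were DESeq2 1.42.0, limma 3.58.1 on log2(TPM + 1) and log2(TPM + 0.1), other scalings and filters, fits of 2 groups, a replicate block and leaving out libraries. The functions were tested on simulated data drawn with the spread that edgeR estimated, where DESeq2 made many more false calls than edgeR. Because of that spread, the simulation cannot rank the tools on these data. The gene tables held no transcript identifier of these files, so a wider list of glycolysis genes and cell markers is not analysed here, and no protein sequence is printed. R 4.3.3 and Python with scipy 1.17.1 were used.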

Additional observations from a re-analysis of the deposited data

Results flagged for a closer look

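SLC2A1 is listed for a closer look because its changes from WT in TE7 and TA7 differed by a test of that difference itself, which is the comparison of TE7 with TA7. The log2 difference was 0.66 (edgeR adjusted p = 0.00444, n = 3 per group), with the TE7 libraries at 189 to 197 CPM and the TA7 libraries at 115 to 129.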

How the results depend on the processing

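SLC2A1 kept its direction and its call in all 19 alternatives of TE7 vs WT (log2 change 0.74 to 0.83) and of TE7 vs TA7 (0.52 to 0.70). The setting without WT and TA7 replicates 1 together was chosen after the data were examined. For the number of members called, the main values were 1 in TE7 vs WT, 0 in TA7 vs WT and 1 in TE7 vs TA7. In that order DESeq2 gave 5, 2 and 4, where it called 20.4%, 2.82% and 16.2% of all tested transcripts. On counts simulated with the spread that edgeR estimated, DESeq2 made many more false calls than edgeR, which cannot rank the tools on these data. The share of all tested transcripts called stands in brackets in what follows. TE7 vs WT gave 3 with library size alone (9.81%) and 2 where 1 CPM was required in 3 libraries or more (21.1%). It gave 3 with limma on either TPM scale (12.1% and 11.9%) and 5 without the first WT and TA7 libraries (11.9%). TE7 vs TA7 gave 3 when only the 2 groups compared were fitted (6.53%) and 6 without those first libraries (6.04%). Leaving out 1 library gave 1 to 4 (3.71% to 11.7%), 0 to 0 (0.00591% to 0.187%) and 1 to 3 (0.354% to 5.63%). The cause was not tested.

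The replicate block gave 1, 0 and 1, and changed no call of a listed transcript. It called 6.77% of all tested transcripts in TE7 vs WT, 0% in TA7 vs WT and 1.4% in TE7 vs TA7. In the same order, the main fit called 9.4%, 0.0612% and 3.07%. The correlations of deviations between same-numbered libraries ran from -0.114 to 0.306 over 19820 transcripts. They were positive for replicate 3 (0.206, 0.248 and 0.148) and negative for replicate 2 (-0.039, -0.03 and -0.114). For replicate 1 they were 0.118 in TE7 vs WT, 0.306 in TA7 vs WT and -0.016 in TE7 vs TA7. Of 9 libraries, 6 correlated best with a library of their own number. Whether same-numbered libraries were handled together is not given and was not tested.

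Of 627 values of single members under alternatives, 564 kept direction and side of the threshold, 33 newly passed, 0 no longer passed and 30 turned direction. In the main fit only SLC2A1 passed, in TE7 vs WT and TE7 vs TA7, so only its values there could stop passing. For TA7 vs WT, GAPDH, ENO1 and TPI1 turned to 0.03, 0.03 and 0.01 with library size alone, and to 0.07, 0.08 and 0.06 with limma on either TPM scale. Without the first WT and TA7 libraries, ENO1 and TPI1 turned to 0.03, LDHA to -0.15 and, in TE7 vs WT, PKM ENST00000319622 to 0.22. PKM ENST00000565184 in TE7 vs WT was at 0 without a filter. PFKP in TE7 vs TA7 turned to -0.01 with limma on either TPM scale. With 1 library left out, TE7 vs WT ranged from -0.63 to 0.22 for PKM ENST00000319622 and from -0.08 to 0.04 for PKM ENST00000565184. TA7 vs WT ranged from -0.12 to 0.07 for GAPDH, -0.09 to 0.10 for ENO1, -0.10 to 0.06 for TPI1, -0.75 to 0.10 for PKM ENST00000319622 and -0.02 to 0.07 for PGK1. TE7 vs TA7 ranged from -0.15 to 0.36 for PKM ENST00000319622. Its PKM share turned too, from -0.037 to 0.009 points in TA7 vs WT and from -0.028 to 0.002 in TE7 vs TA7. PKM ENST00000319622 had the fewest reads of the 11, 190 to 573 per library, and the part of depth in its turns was not tested.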
